A study of Rattus norvegicus with 12 samples.

Results

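The opioid peptide precursor genes are Penk, Pnoc, Pdyn and Pomc, 4 genes of the 41596 that the deposited transcript files give, and all 4 were among the 24540 genes whose mean reached the 0.5 TPM needed for testing. They were taken as a list of named genes with no threshold on a measured value, though earlier results of these data were known when the list was made. Their levels were measured by polyA RNA sequencing of the periaqueductal grey, a midbrain region through which descending pain control acts, in 12 male Sprague Dawley rats. In 6 animals the sire had been given saline (saline-sired 1 to 6) and in 6 the sire had been given morphine (morphine-sired 1 to 6), so the treatment was that of the father and the labels name none for the offspring themselves. Dose, route and timing of the paternal treatment, the age of the offspring, and their litters and sires are not given in the sources used here, and the tests take each of the 12 animals as a separate replicate. The depth behind a library, as the files show it, was 4.39 to 6.03 gigabases. Markers of GABA neurons, Gata3 and Tal1 of the midbrain among them, summed to 456.1 to 665.5 TPM in the saline-sired and to 447.1 to 640.7 TPM in the morphine-sired libraries, while markers of neighbouring nuclei differed between libraries and are given beside the results.

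Each precursor is a large protein that is cut at pairs of basic residues into small peptides inside secretory granules. Penk yields the enkephalins, which act mainly at the delta and mu opioid receptors. Pdyn yields the dynorphins, which act at the kappa receptor. Pomc yields beta-endorphin together with ACTH and the melanocyte-stimulating hormones. Pnoc yields nociceptin, the ligand of the receptor Oprl1, which classical opioids do not bind. In the periaqueductal grey these peptides are known as parts of the circuit on which opioid analgesia acts, and beta-endorphin reaches it largely in fibres from the arcuate nucleus of the hypothalamus.

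On the build Rnor_6.0, which the submitters' processing notes name, Penk lies at chr5:17056419-17061837 on the minus strand, Pnoc at chr15:48805228-48833521 on the minus strand, Pdyn at chr3:122194329-122206671 on the minus strand and Pomc at chr6:28382962-28388967 on the plus strand. None of the 4 spans held another transcript model on the opposite strand. Penk's span held 1 short same-strand model of 78 bases that is not counted to the gene, at a mean of 0.380 TPM.

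The bases just before the annotated start of transcription are shown for Pdyn and Pomc, the members for which a promoter sequence was available. Whether these starts are those of the transcript models whose exon coverage is given below was not tested. The RefSeq promoter table (build GRCr8) held 2 of the 4 members, Pdyn at chr3:137366504-137366753 on the minus strand and Pomc at chr6:32659103-32659352 on the plus strand. Each line gives 250 bases 5′ to 3′ on the gene's own strand, ending 1 base before the annotated start, with the capitals marking matches to TATAAA or to CCAAT on either strand.
Pdyn: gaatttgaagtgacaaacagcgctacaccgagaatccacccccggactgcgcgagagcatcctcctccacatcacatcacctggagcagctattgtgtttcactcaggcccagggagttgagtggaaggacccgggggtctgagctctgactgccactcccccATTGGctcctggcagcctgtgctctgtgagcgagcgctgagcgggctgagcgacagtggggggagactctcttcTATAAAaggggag
Pomc: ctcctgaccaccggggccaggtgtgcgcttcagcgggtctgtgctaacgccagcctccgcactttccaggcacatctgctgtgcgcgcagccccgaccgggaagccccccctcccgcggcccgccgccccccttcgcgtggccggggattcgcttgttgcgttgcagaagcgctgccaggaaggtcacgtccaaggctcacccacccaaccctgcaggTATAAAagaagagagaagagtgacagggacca
Both windows hold TATAAA, from 13 to 8 bases before the start in Pdyn and from 32 to 27 bases before it in Pomc, and 12.9% of the 33465 promoters of the table hold it on either strand. Pdyn also holds CCAAT in reverse, from 87 to 83 bases before the start, as 34.0% of promoters do on either strand. Neither window holds TGACG (in 18.2% of promoters) or TGANTCA (in 6.34%). The 4 motifs share no overlapping match in these windows.

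Penk was the most abundant of the 4, followed by Pnoc, Pdyn and Pomc. TPM, the deposited unit of transcript abundance relative to the library's total, is scaled by transcript length, so the levels of different genes can be set side by side. Over the 12 libraries the mean level was 98.9 ± 34.8 TPM for Penk, 25.8 ± 5.85 for Pnoc, 7.67 ± 2.72 for Pdyn and 4.86 ± 1.26 for Pomc (SD, n = 12). Penk exceeded Pnoc in 12 of 12 libraries, with a median ratio of 3.53, and Pnoc exceeded Pdyn in 12 of 12, with a median ratio of 3.81. Pdyn and Pomc did not keep their order: Pdyn was the higher in 9 of 12 libraries, and the median ratio of Pdyn to Pomc was 2.31 in the saline-sired and 1.07 in the morphine-sired libraries. Penk made up 62.4% to 78.9% of the summed level of the 4 genes.

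Among 24 neuropeptide precursors measured in the same libraries, Penk ranked 5th, behind Cartpt, Sst, Cck and Ucn. Pnoc ranked 8th, Pdyn 15th and Pomc 20th. Without morphine-sired 3, which held most of the Oxt and Avp signal, Penk was still 5th, Pnoc 7th, Pdyn 13th and Pomc 19th. Against all tested genes with a symbol, Penk lay at the 89.5 percentile of level and Pomc at the 26.7 percentile. Penk also varied more between animals of 1 group than most genes at its level: its within-group SD on the log2(TPM + 1) scale was 0.50, the 94.9 percentile among 2907 genes within 2-fold of its level. The same percentile was 85.7 for Pnoc, 78.6 for Pdyn and 54.8 for Pomc.

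**Figure D1:**
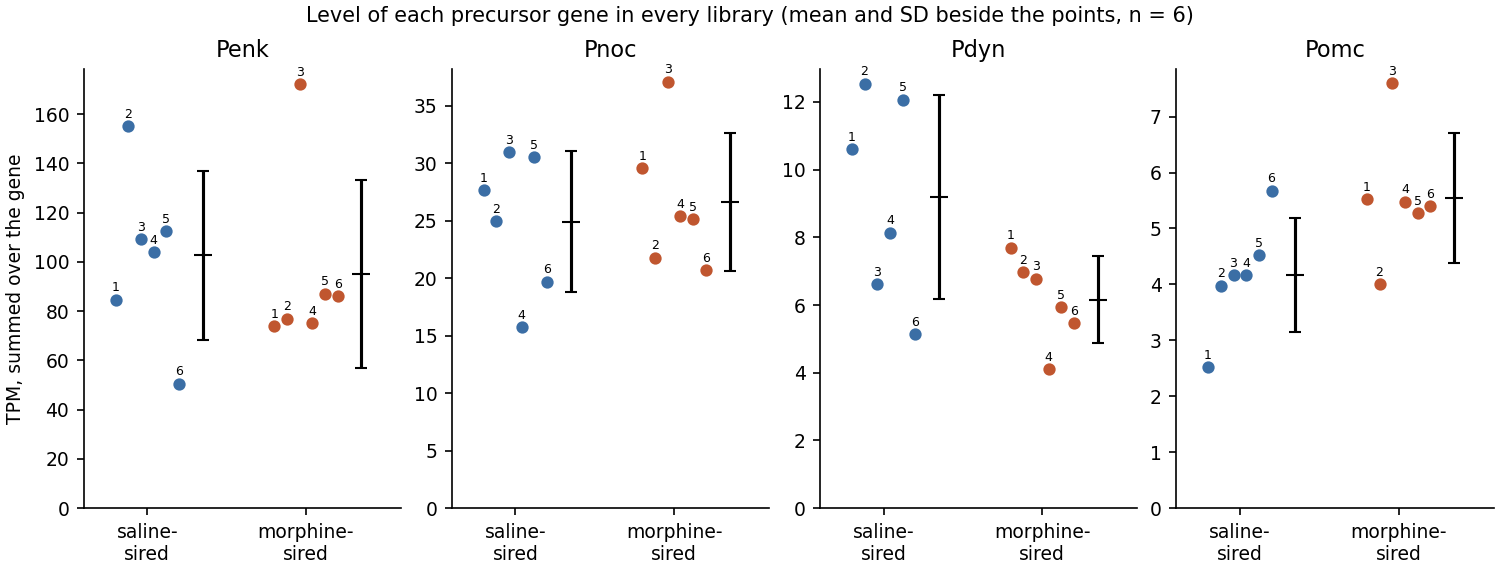
Level of Penk, Pnoc, Pdyn and Pomc (TPM, linear axes from 0, 1 panel a gene) in each saline-sired (blue) and morphine-sired (orange) library, numbered by animal, with the group mean and SD (n = 6) to the right of the points. Morphine-sired 3 is the highest library for Penk at 172.1 TPM, all 6 morphine-sired libraries lie at or below 7.69 TPM for Pdyn, and the groups overlap in every panel.

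No precursor differed between the groups after adjustment for the 24540 genes tested, and neither did any other gene. Differences are given as morphine-sired minus saline-sired on the log2(TPM + 1) scale, tested with limma across all genes with Benjamini-Hochberg adjustment, and log2(TPM + 1) understates the change of low genes. At an adjusted p under 0.05 the share of genes called was 0%, at an unadjusted p under 0.05 it was 3.22% (790 genes), and the groups did not overlap in 0.0896% (22 genes). Of the 4 members, 0 passed the adjusted threshold, 2 (Pdyn and Pomc) had an unadjusted p under 0.05, and 0 had groups that did not overlap. In whole tissue, fewer cells that make a transcript and less transcript per cell cannot be told apart.

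Pdyn, the dynorphin precursor, had a lower mean in the morphine-sired animals. Its level in saline-sired 1 to 6 was 10.6, 12.5, 6.62, 8.14, 12.1 and 5.14 TPM. In morphine-sired 1 to 6 it was 7.69, 6.97, 6.78, 4.10, 5.94 and 5.46 TPM. Saline-sired 1, 2, 4 and 5 lay above every morphine-sired library, saline-sired 3 and 6 lay among them, and 6 of 6 morphine-sired libraries were below the saline-sired median of 9.38 TPM. The means were 9.19 ± 3.02 and 6.16 ± 1.28 TPM (SD, n = 6 each), a ratio of 0.670. The log2 difference was -0.47 ± 0.20 (SE), with a 95% interval from -0.91 to -0.04, a limma p of 0.0363 and an adjusted p of 0.9998. An exact two-sided permutation test over the 924 assignments, whose smallest possible p is 0.0021645, gave p = 0.0628. Rbfox3, the gene of the neuronal marker NeuN, also had a lower mean in the morphine-sired libraries (82.4 ± 14.1 and 67.9 ± 3.51 TPM, log2 difference -0.26 ± 0.10 (SE), limma adjusted p = 0.9998), and of 5 neuron markers 4 had a lower and 1 a higher mean. Saline-sired 2, the highest library for Pdyn, also had the highest summed cerebellar markers, 388.6 TPM against at most 135.8 in the others, and without it the Pdyn difference was -0.38. The part of these in the Pdyn result was not tested further.

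By exon, the gap between the Pdyn means was widest in the last 2 of 4 exons, a contrast between exons that was not tested. Exon coverage is the deposited mean read depth over the exon, divided here by the gigabases behind each library so that libraries can be compared. Exon 4, with 2072 of the transcript's 2439 bases, had 4.05 ± 1.32 per gigabase in the saline-sired and 2.66 ± 0.554 in the morphine-sired libraries (SD, n = 6 each). Exon 3 (146 bases) had 4.76 ± 2.37 and 3.16 ± 1.18. Exon 1 (160 bases) had 2.35 ± 0.922 and 2.07 ± 0.563, and exon 2 (61 bases) had 3.61 ± 2.16 and 3.13 ± 1.37, so the means of these short exons lay closer together than their SDs. Exon 3 alone gave a log2 difference of -0.42 ± 0.29 (SE), with an exact permutation p of 0.173. The longer exon 4 was not tested by itself. For Pomc, below, the exon tested is the 883-base last one, so the single-exon results of the 2 genes are not like measures. Reads covered the whole Pdyn model: over all libraries, exon 1 reached 65.4% and exon 2 99.8% of the coverage of the last exon.

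Pomc, the precursor of beta-endorphin, had a higher mean in the morphine-sired animals. Saline-sired 1 to 6 held 2.52, 3.98, 4.17, 4.16, 4.53 and 5.68 TPM. Morphine-sired 1 to 6 held 5.52, 4.01, 7.59, 5.48, 5.27 and 5.40 TPM. Morphine-sired 3 lay above every saline-sired library, morphine-sired 2 lay among the low ones, and 5 of 6 morphine-sired libraries exceeded the saline-sired median of 4.17 TPM. The means were 4.17 ± 1.02 and 5.54 ± 1.15 TPM (SD, n = 6 each), a ratio of 1.33. The log2 difference was 0.35 ± 0.15 (SE), with a 95% interval from 0.01 to 0.68, a limma p of 0.0437 and an adjusted p of 0.9998. The exact permutation p was 0.0541. Without morphine-sired 3 the log2 difference was 0.26, and the limma adjusted p was at least 0.819 with any 1 library left out.

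Coverage of Pomc came almost entirely from its last exon, the exon that encodes ACTH and beta-endorphin. Exon 1 (83 bases) was listed at 0 in 10 of 12 libraries and reached at most 1.61 reads per base in the others. Exon 2 (151 bases) had a mean depth of 2.12 reads per base and exon 3 (883 bases) one of 13.7, so exon 2 reached 15.5% and exon 1 1.41% of the depth of exon 3. By library, exon 2 lay between 0% (morphine-sired 2) and 51.1% (saline-sired 6) of exon 3, with a median of 11.1%, and the median was 16.4% in the saline-sired and 9.40% in the morphine-sired libraries. For comparison, in 1515 loci with a single transcript model of at least 3 exons and a mean last-exon depth of 5 to 50, the second exon had a median of 125.5% of the last one, and 44 of these loci (2.90%), Pomc among them, had a share at or below that of Pomc. Pomc's first exon was likewise low, with 3.23% of these loci at or below its share. Whether the reads of exon 3 came from transcripts that also hold exons 1 and 2 was not tested. The Pomc TPM and exon 3 values therefore need not measure the full-length transcript.

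Restricted to exon 3, the Pomc groups overlapped less than in TPM. Saline-sired 1 to 6 had 1.33, 2.15, 2.10, 2.22, 2.50 and 2.81 per gigabase, and morphine-sired 1 to 6 had 2.94, 2.21, 4.00, 3.02, 2.84 and 2.86. Of the morphine-sired libraries, 5 lay above all saline-sired ones and morphine-sired 2 lay among them. The means were 2.19 ± 0.498 and 2.98 ± 0.577 (SD, n = 6 each), and the difference on log2(coverage per gigabase + 1) was 0.32 ± 0.13 (SE), with an exact permutation p of 0.0173. This comparison was added after the data had been seen, is 1 of 4 such exon comparisons and carries no adjustment. Exon 2 went the other way in its means, with 0.547 ± 0.543 in the saline-sired and 0.285 ± 0.280 in the morphine-sired libraries, a difference smaller than the SD of the saline-sired group.

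**Figure D2:**
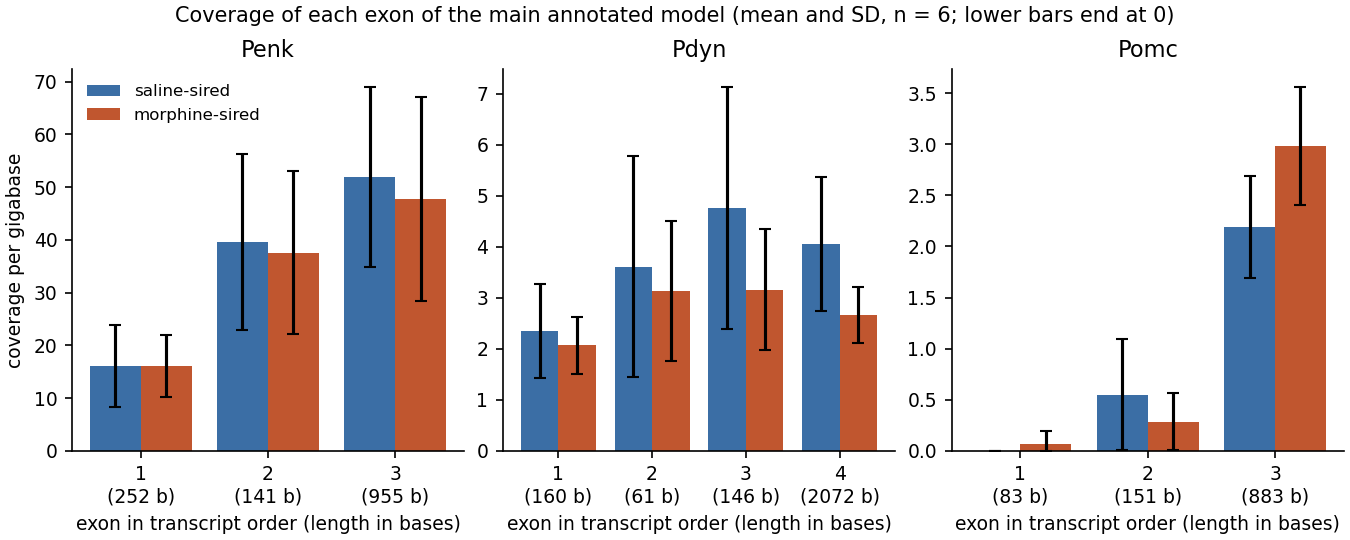
Coverage per gigabase (linear axes from 0) of each exon of the main annotated model of Penk, Pdyn and Pomc, in transcript order with the exon length in bases, as mean and SD over 6 saline-sired (blue) and 6 morphine-sired (orange) libraries. Pomc exon 3 stands at 2.19 and 2.98 while its exons 1 and 2 lie below 0.6, and in Pdyn exons 3 and 4 show the gap between the groups.

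Pomc is made at high levels in the pituitary and in arcuate neurons, so markers of both were read in the same libraries. The summed level of 8 pituitary genes ran from 4.13 to 8.42 TPM in the saline-sired and from 2.55 to 11.7 TPM in the morphine-sired libraries, nearly all of it from Lhb (mean 5.06) and Tshb (mean 0.620). The defining hormones were near 0: Prl and Fshb were listed at 0 in 12 of 12 libraries, and Gh1, the growth hormone gene, reached at most 0.349 TPM. The summed level of 6 arcuate and neighbouring hypothalamic genes ran from 3.91 to 9.18 and from 4.10 to 8.71 TPM. Most of this sum came from Otp (mean 3.88 TPM), Sim1 (1.13) and Ghrh (1.01), while Kiss1 and Nr5a1 lay below the 0.5 TPM limit. Agrp, which marks another arcuate cell type, had 0.326 ± 0.491 TPM in the saline-sired and 0.788 ± 0.490 in the morphine-sired libraries (SD, n = 6 each), a log2 difference of 0.46 ± 0.24 (SE; limma adjusted p = 0.9998). The 4 tested genes of the list did not share a direction. Agrp and Ghrh (0.21) had a higher mean in the morphine-sired libraries, Otp (-0.16) and Sim1 (-0.16) a lower one, and the median log2 difference was 0.03. The relation of Pomc with the mean level of this list had r = 0.35 (permutation p = 0.274, adjusted 0.587; rho = 0.57, p = 0.0542, adjusted 0.578), with 0.26 without the 2 libraries farthest from the median, -0.03 within the saline-sired and 0.62 within the morphine-sired libraries. Oxt, the oxytocin precursor of the hypothalamus, stood at 348.4 TPM in morphine-sired 3 and at no more than 17.8 TPM elsewhere. In TPM, morphine-sired 3 was also the highest library for Pomc, Penk and Pnoc. By single-exon coverage per gigabase it was the highest for Pomc only. By that measure saline-sired 2 was the highest for Penk (68.0 against 67.8 in morphine-sired 3) and for Pnoc (38.3 against 37.0). The part of morphine-sired 3 in the results was not tested beyond leaving the library out.

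Penk, the enkephalin precursor, had group means that differed by less than the spread within either group. Saline-sired 1 to 6 held 84.6, 155.0, 109.1, 103.9, 112.4 and 50.6 TPM. Morphine-sired 1 to 6 held 73.8, 76.9, 172.1, 75.2, 87.1 and 86.0 TPM. The other morphine-sired libraries lay between 73.8 and 87.1 TPM and morphine-sired 3 stood far above them. The means were 102.6 ± 34.4 and 95.2 ± 38.1 TPM (SD, n = 6 each), while the medians were 106.5 and 81.4. The log2 difference was -0.10 ± 0.26 (SE), with a 95% interval from -0.66 to 0.46, a limma p of 0.699 and an adjusted p of 0.9998. Without morphine-sired 3 it was -0.29, and without saline-sired 2 it was 0.031.

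Nearly all of the Penk signal came from 1 of its 2 annotated models. The 3-exon model ENSRNOT00000011892 had 101.5 ± 34.3 TPM in the saline-sired and 94.3 ± 37.6 in the morphine-sired libraries, and the 2-exon model ENSRNOT00000089318 had 1.11 ± 0.805 and 0.926 ± 0.832 (SD, n = 6 each). Along the 3-exon model, coverage fell towards the 5′ end, with exon 1 at 32.4% and exon 2 at 77.1% of the last exon. Exon 2, which both models share, gave 40.1 ± 16.8 and 38.0 ± 15.6 per gigabase, a log2 difference of -0.05 ± 0.32 (SE) and an exact permutation p of 0.866.

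Pnoc, the nociceptin precursor, likewise had group means closer together than the spread within either group. Saline-sired 1 to 6 held 27.6, 25.0, 31.0, 15.7, 30.5 and 19.7 TPM. Morphine-sired 1 to 6 held 29.6, 21.8, 37.1, 25.4, 25.1 and 20.7 TPM. The groups overlapped over most of their range, with morphine-sired 3 the highest and saline-sired 4 the lowest in TPM. The means were 24.9 ± 6.11 and 26.6 ± 6.01 TPM (SD, n = 6 each), and the log2 difference was 0.10 ± 0.18 (SE), with a 95% interval from -0.28 to 0.49, a limma p of 0.573 and an adjusted p of 0.9998.

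The make-up of Pnoc was far less even than its total. The gene holds 1 annotated transcript, ENSRNOT00000019117, and 4 that were assembled in the series, all sharing exons 2 to 4 in part and differing mainly in their ends. The annotated transcript took 72.7% of the gene's TPM in saline-sired 6 and 1.40% in morphine-sired 1, and it held less than 50% in 6 of 12 libraries, 2 saline-sired and 4 morphine-sired. Its own level therefore ran from 0.415 to 21.9 TPM while the gene ran from 15.7 to 37.1. On the annotated transcript alone the log2 difference was -0.59 (limma adjusted p = 0.9995), the opposite sign to that of the gene. StringTie divides reads between overlapping transcripts, and how far this division is stable between libraries was not tested.

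**Figure D3:**
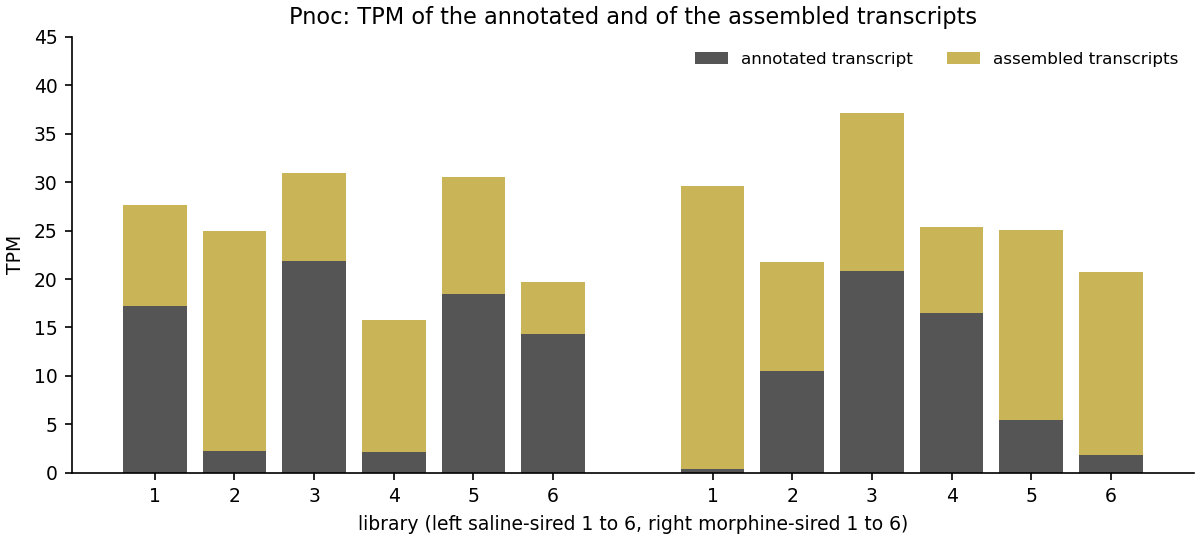
TPM of Pnoc in each library (bars from 0), split into the annotated transcript (grey) and the sum of the 4 assembled transcripts (yellow). The total stays between 15.7 and 37.1 TPM while the annotated share ranges from 1.40% in morphine-sired 1 to 72.7% in saline-sired 6.

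A measure free of that division is the coverage of exon 2 of Pnoc (chr15:48818445-48818594, 150 bases), which all 5 transcripts hold whole. Summed over them it was 28.1 ± 6.59 per gigabase in the saline-sired and 30.0 ± 6.15 in the morphine-sired libraries (SD, n = 6 each), a log2 difference of 0.10 ± 0.18 (SE) with an exact permutation p of 0.606. Across the 12 libraries its Pearson correlation with the gene's TPM was 0.52, against 0.96 to 0.99 for the exons used for Penk and Pomc and 0.77 for that of Pdyn, a description of 2 measures of the same reads. The order of the libraries differed too, with saline-sired 2 the highest on exon 2 (38.3 per gigabase) and saline-sired 6 the lowest (18.6). The relations of Pnoc with other genes and with marker lists, given below, rest on TPM and were not repeated on exon 2. The coverage given to the annotated Pnoc model alone, which does depend on that division, was uneven. Exon 2 had a mean of 13.5 per gigabase and exon 3 one of 11.2, while the 394-base exon 1 had 0.360 and the 1004-base exon 4 had 2.17.

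**Figure D4:**
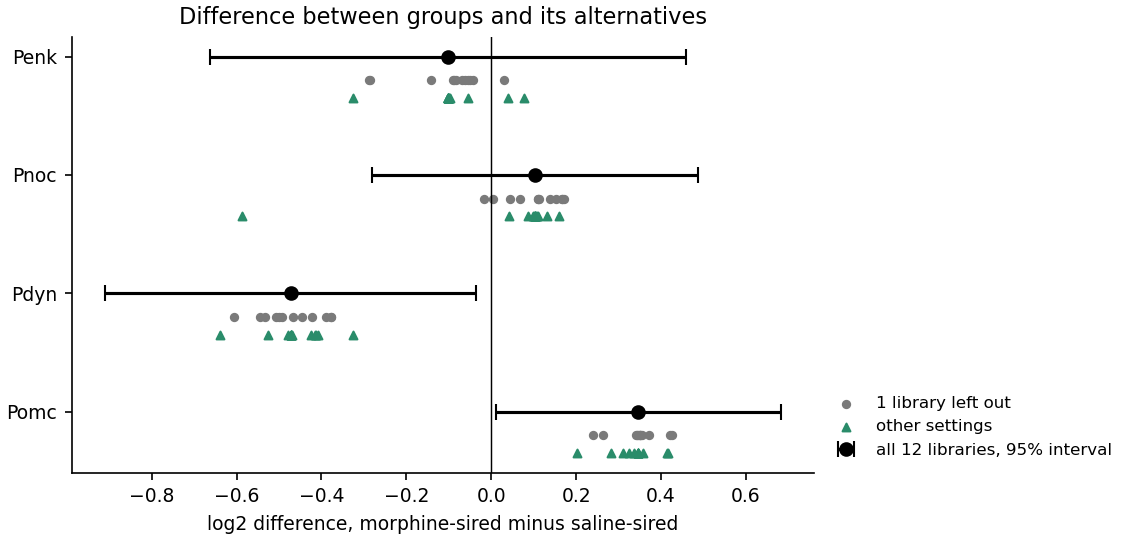
Difference in mean log2(TPM + 1), morphine-sired minus saline-sired, for the 4 genes: all 12 libraries with the 95% interval (black), each library left out in turn (grey) and other settings, including the coverage of 1 shared exon (green triangles). Pdyn stays between -0.64 and -0.33 and Pomc between 0.20 and 0.43, while points of Penk and Pnoc lie on both sides of 0.

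None of the receptors of these peptides passed the test. Oprl1, the nociceptin receptor, was the most abundant at 45.7 ± 4.11 TPM in the saline-sired and 48.5 ± 4.65 in the morphine-sired libraries, followed by the mu receptor Oprm1 (12.6 ± 5.26 and 12.4 ± 4.07), the kappa receptor Oprk1 (9.08 ± 1.62 and 10.00 ± 2.96) and the delta receptor Oprd1 (5.34 ± 1.21 and 5.26 ± 1.17; SD, n = 6 each). The melanocortin receptors Mc4r and Mc3r, which bind peptides from Pomc, had means of 3.64 and 2.51 TPM over all libraries. Of these 6 receptors 0 passed the adjusted or the unadjusted threshold. Their median log2 difference was 0.01, and that of all 24540 genes was -0.00, with 49.2% of them higher in the morphine-sired libraries.

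None of the enzymes that cut and trim the precursors passed the test. Of 9 processing genes, 6 had a higher and 3 a lower mean in the morphine-sired libraries, with a median log2 difference of 0.05 and 0 past either threshold. Cpe, the carboxypeptidase that removes the basic residues, had 1661 ± 111 and 1824 ± 255 TPM, and the convertase Pcsk2 had 102.0 ± 20.9 and 106.3 ± 23.6 (SD, n = 6 each). Pcsk1, the convertase known for the first cuts of Pomc, was much lower at 5.97 ± 0.901 and 7.02 ± 1.88. Of 7 secretory granule genes, 4 were higher and 3 lower, with a median of 0.06 and 0 past either threshold. Chga, a granule protein, had 460.0 ± 56.9 and 457.9 ± 43.2 TPM.

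Among 14 peptidases that degrade opioid and related peptides, 13 were tested, 5 with a higher and 8 with a lower mean, and the median log2 difference was -0.04. None passed the adjusted threshold and 2, Ece1 and Enpep, had an unadjusted p under 0.05, where 3.22% of all genes did. Ece1, an endothelin-converting enzyme that also cuts neuropeptides, had 45.8 ± 6.39 TPM in the saline-sired and 36.5 ± 4.51 in the morphine-sired libraries, a log2 difference of -0.32 ± 0.10 (SE; limma adjusted p = 0.9998). Enpep, an aminopeptidase, had 2.23 ± 0.309 and 1.71 ± 0.348 TPM, a difference of -0.26 ± 0.12 (SE; limma adjusted p = 0.9998). Mme (neprilysin), the main enkephalin-degrading enzyme known in brain, had 3.86 ± 0.542 and 3.50 ± 0.436 TPM (limma adjusted p = 0.9998).

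Of 9 transcriptional regulators known for these genes, 8 were found and tested, 7 with a higher and 1 with a lower mean, and 0 passed either threshold (median log2 difference 0.10). Kcnip3, the calcium-binding repressor DREAM that acts on Pdyn, had 31.8 ± 9.67 and 33.7 ± 5.36 TPM. Tbx19, the pituitary factor that drives Pomc, had 1.56 ± 0.548 and 1.81 ± 1.22 TPM. Fos had 21.7 ± 6.70 and 25.1 ± 6.93 TPM (SD, n = 6 each). Of 20 other neuropeptide precursors 19 were tested, 14 with a higher and 5 with a lower mean, and 0 passed either threshold (median log2 difference 0.16). For comparison, 49.2% of all genes tested had a higher mean, and neither list was tested as a whole.

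The 4 genes did not move together over animals in a way that held up to adjustment. In all, 70 relations were computed over the 12 libraries, 6 between members and 64 between a member and the mean level of a marker list, and the smallest adjusted permutation p was 0.419 for Pearson's r and 0.197 for Spearman's rho, the latter for Penk and the cholinergic and motor list. Pdyn and Pomc had opposite tendencies (r = -0.56, permutation p = 0.0549, adjusted 0.559; rho = -0.63, p = 0.0329, adjusted 0.578). Without the 2 libraries farthest from the Pdyn median, r was -0.63. Within the saline-sired libraries it was -0.54 and within the morphine-sired ones -0.00. Penk and Pdyn had r = 0.52 (permutation p = 0.0829, adjusted 0.559; rho = 0.48, p = 0.115, adjusted 0.645), with 0.53 without the 2 farthest, 0.74 within the saline-sired and 0.21 within the morphine-sired libraries.

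By Pearson's r, Penk had its closest marker relations with the GABA neuron, cholinergic and motor, and serotonergic lists, and none passed adjustment. The last 2 of these lists were read as markers of neighbouring nuclei. The r of Penk with the GABA neuron list was 0.70 (permutation p = 0.0118, adjusted 0.419; rho = 0.55, p = 0.0668, adjusted 0.578), and it was 0.61 without the 2 libraries farthest from the median, 0.89 within the saline-sired and 0.40 within the morphine-sired libraries. Serotonergic markers fell into separate ranges, so no correlation over all libraries is given for them: their summed level was 465.9 to 1059 TPM in saline-sired 2 and 3 and morphine-sired 2, and 43.4 to 137.0 TPM in the other 9. All 6 of these markers had a lower mean in the morphine-sired libraries. Penk was 76.9 to 155.0 TPM in these 3 and 50.6 to 172.1 TPM in the other 9, in which its r with the serotonergic score was 0.83. Those 9 were split again. The score was 3.38 to 3.72 in saline-sired 4 and 5 and morphine-sired 3, with Penk at 103.9, 112.4 and 172.1 TPM. In the rest of the 9 it was 1.54 to 2.28, with Penk at 50.6 to 87.1 TPM. The r of 0.83 therefore largely sets these sets of libraries against each other, and it was not tested. With the serotonergic score as a term in the fit, the log2 difference was 0.039 for Penk, 0.13 for Pnoc, -0.41 for Pdyn and 0.34 for Pomc, and the limma adjusted p was at least 0.9975 in each case.

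Cholinergic and motor markers were likewise split. Their summed level was 53.4 to 68.0 TPM in 3 libraries (saline-sired 1 and 6 and morphine-sired 1) and 142.9 to 273.3 TPM in the other 9. Penk was 50.6 to 84.6 TPM in these 3 and 75.2 to 172.1 TPM in the other 9, in which its r with the cholinergic score was 0.71. Pdyn ran from 5.14 to 10.6 TPM and from 4.10 to 12.5 TPM, and Pomc from 2.52 to 5.68 and from 3.98 to 7.59. Without the 3 libraries the log2 difference was -0.33 for Penk, 0.041 for Pnoc, -0.64 for Pdyn and 0.31 for Pomc. Choroid plexus markers were highest in saline-sired 2 (446.6 TPM summed) and morphine-sired 2 (1800 TPM), and without this pair the differences were 0.078, 0.16, -0.41 and 0.41 in the same order, with 0.507 (Pomc) as the lowest limma adjusted p. Means of the 6 choroid plexus markers were all higher in the morphine-sired libraries, 3 of them (Folr1, Prlr and Clic6) at an unadjusted p under 0.05, and of 6 microglia markers 5 had a higher mean, 3 of them (C1qa, C1qb and Csf1r) at an unadjusted p under 0.05. None of these passed the adjusted threshold. Of all genes tested, 3.22% had an unadjusted p under 0.05 and 49.2% a higher mean, and the marker lists were not tested as wholes. The part of the dissection in the levels of the precursors was not tested beyond these values.

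The marker relation of Pnoc with the smallest p was with the oligodendrocyte list, and it did not pass adjustment. Its r was -0.61 (permutation p = 0.0342, adjusted 0.559; rho = -0.55, p = 0.0710, adjusted 0.578), with -0.47 without the 2 libraries farthest from the median, -0.41 within the saline-sired and -0.81 within the morphine-sired libraries. The r of Penk with the same list was -0.44 (permutation p = 0.156, adjusted 0.559).

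For genes that move with a precursor, 10160 candidates had a mean of at least 5 TPM, a symbol that is not a placeholder and a locus of 1 symbol. No precursor was set against itself. The genes whose levels followed each precursor most closely over the 12 libraries were found among these candidates by Pearson's r of log2(TPM + 1). They are given as a description of these 12 libraries. For Penk they were Rxra (r = 0.93), a retinoid receptor, Slit3 (0.91), a guidance protein, H6pd (0.89), Ppp1r36 (0.89) and Mipep (0.87), and for Rxra r was 0.93 within the saline-sired and 0.98 within the morphine-sired libraries. For Pdyn they were Sept8 (0.85), Rbfox3 (0.82), Rad52 (0.81), Faf2 (0.81) and Thap3 (0.80), and the r of Rbfox3 was 0.89 within the saline-sired and -0.07 within the morphine-sired libraries. For Pomc they were Disp1 (0.89), Psap (0.89), a lysosomal saposin precursor, Tmem100 (0.87), Srebf1 (0.86), a regulator of lipid synthesis, and Lrp4 (0.85). For Pnoc they were Tp53inp1 (0.89), Mpg (0.84), Yeats2 (0.82), L3mbtl2 (0.81) and Cfap20 (0.80).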

How the data were processed

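PolyA RNA of 12 libraries was sequenced, 6 a group, each an animal. Per the submitters' processing notes, reads were handled with Trimmomatic 0.39, HISAT2 2.2.0 and StringTie 2.1.2 on Rnor_6.0. Per the file headers, StringTie 1.3.6 wrote the deposited files, which give coverage (mean read depth per base), FPKM and TPM for 76232 transcripts (41063 annotated, 35169 assembled). Whether reads were counted by strand is not stated. From the deposited log2 table of the series only the pairing of transcripts with symbols was taken, and its 12 value columns were not used.

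A gene's TPM is the sum for all transcripts carrying its symbol, with assembled transcripts of a locus that has 1 symbol. The gigabases behind a library, the median of coverage over FPKM, were 4.39 to 6.03, which limits low genes most. Exon coverage was divided by them. Genes averaging 0.5 TPM or more were tested on log2(TPM + 1) with limma 3.58.1 in R 4.3.3 (intensity trend, two-sided, sire's treatment alone), after a test on simulated data. Permutations used Python 3.11.15, scipy 1.17.1 and 100000 resamples for correlations. Alternatives were other pseudocounts (0.1 and 5), filters, units, scalings, transcript sets and libraries left out. The single-exon comparison was added after the data were seen.

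The 4 members, the gene and marker lists and the libraries left out together were chosen with earlier results of these data known. The text names the members, genes of these lists and, for each member, the 5 genes of highest correlation. Precursor proteins, listed for description, were not analysed here.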

Additional observations from a re-analysis of the deposited data

Results flagged for a closer look

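In all, 32 groups of 6 values were read: the TPM and shared-exon coverage of the 4 genes and the TPM of their transcripts averaging at least 0.5 TPM, in each group. Pdyn and Pomc have 1 transcript each, so their gene and transcript values are the same. Chance gives about 1 in 20 groups when the groups are separate, which these were not all. A library whose gap to its nearest neighbour was an unusually large part of the group's range was found in 4 groups. Of these, 3 concern Penk in morphine-sired 3: its gene level was 172.1 TPM against 87.1 in the next library, its main model ENSRNOT00000011892 stood at 170.0 TPM against 86.8, and its exon 2 coverage at 67.8 per gigabase against 38.8. They are 3 readings of the same reads. The remaining one is the assembled Pnoc transcript MSTRG.9179.3 in morphine-sired 1, at 10.3 TPM against 4.92 in the next library. In morphine-sired 1 the annotated Pnoc transcript held 1.40% of the gene. The assembled Pnoc transcript MSTRG.9179.5, which lies below the 0.5 TPM limit, was not among the groups read. It stood at 3.81 TPM in morphine-sired 2 and at 0 in the other 11 libraries.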

How the results depend on the processing

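Pdyn kept its direction in 26 of 26 alternatives (-0.64 to -0.33) and Pomc in 25 of 25 (0.20 to 0.43), and the lowest limma adjusted p of the 4 genes was 0.507. Some of these alternatives change only the test or the set of genes, so they could not alter the difference of Pdyn (-0.47) or Pomc (0.35). They were annotated transcripts alone (both genes have no other kind), no filter, robust empirical Bayes and the exact permutation test. For Pdyn the filter of 5 TPM was another. Pomc, with a mean of 4.86 TPM, was not tested under a filter of 5 TPM. Leaving out 1 library in turn gave -0.61 to -0.38 for Pdyn (unadjusted limma p under 0.05 in 6 of 12 fits, lowest 0.00527 without saline-sired 6), 0.24 to 0.43 for Pomc (in 3 of 12), -0.29 to 0.031 for Penk and -0.016 to 0.17 for Pnoc. Penk changed sign without saline-sired 2 (0.031), without saline-sired 2 and morphine-sired 2 (0.078) and with the serotonergic term (0.039). Pnoc changed sign without saline-sired 4 (-0.016) and on the annotated transcript alone (-0.59). The cause was not tested. Genes past the adjusted threshold numbered 0 to 1 with 1 library left out (1 without saline-sired 4 and 1 without saline-sired 6), and 1 without saline-sired 1 and 6 and morphine-sired 1. None of the 4 precursors was among them. Genes at an unadjusted p under 0.05 numbered 376 under the 5 TPM filter, which tests fewer genes, 677 to 1473 with 1 library left out (1473 without morphine-sired 2) and 2174 without saline-sired 2 and morphine-sired 2. The correlation of Penk with Pomc was 0.064 over all libraries, -0.37 without the 2 libraries farthest from the median, -0.31 within the saline-sired and 0.81 within the morphine-sired libraries, and that of Pnoc with Pomc was 0.20, -0.31, -0.32 and 0.82. No paired analysis was possible because the labels tie no animal of 1 group to an animal of the other.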
